A study of Canis lupus familiaris with 23 samples.

Results

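The interferon response is the antiviral programme of vertebrate cells. Sensors of foreign nucleic acid induce secreted interferons, which bind receptors on the same and neighbouring cells, and Janus kinases and STAT proteins then switch on interferon-stimulated genes. Keratinocytes can run this programme themselves and also hold low levels of many of its genes at rest. ISG15, IFI44, OAS1, MX1, MX2, IRF1 and IFIH1 were followed here by RNA abundance, as 7 of the 21414 named entries in the deposited count tables. They were picked by gene symbol with earlier results on the differentiation media in view, so their values in those media are a description with no test. All 7 were listed in all 23 libraries and all 7 passed the filter on low counts. IFI44 and MX2 passed it through 1 library each, and ISG15 only through the 6 differentiation libraries where it was high, so having passed says nothing about the genes.

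The libraries were made by CEL-seq2, which reads the 3′ ends of polyadenylated RNA from bulk material, from dog hair follicles, interfollicular epidermis, whole skin and organoids, which are small 3-dimensional cultures of epithelial cells. Follicle-derived organoids at passages 3 to 6 and day 7 were kept in a differentiation medium lacking Noggin, R-Spondin-1 and Forskolin (2 libraries), in that medium lacking only Noggin and R-Spondin-1 (2), or in the complete differentiation medium (2). Noggin blocks BMP signals, R-Spondin-1 strengthens Wnt signals and Forskolin raises cyclic AMP. Expansion medium held follicle-derived organoids, also sampled at day 7, at passages 3 to 6 (later) with (2) or without (2) an inhibitor of Tgf-beta signalling, and at passages 0 to 1 (early) with (3) or without (2) it. Interfollicular organoids, all with the inhibitor, gave 1 later and 1 early library. Tissue gave 2 libraries each of follicle, interfollicular epidermis and whole skin. The labels give no breed, age or genotype, do not say whether replicates came from separate dogs or cultures, and do not say whether the differentiation cultures received the inhibitor. P-values therefore measure only the spread between these libraries, which may be technical.

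Total counts ran from 86301 to 4822410 per library, and from 235900 to 689751 gene counts in the differentiation media, against 1090699 or more in later expansion medium. The labels name the tissue of origin and no cell type, so keratinocyte markers are given here by their levels. KRT14, a basal keratin, had group means of 36871 to 46184 CPM (counts scaled to a common library total) in the 3 differentiation media, against 26548 and 35497 CPM in later expansion medium with and without the inhibitor, and was not called (edgeR adjusted p = 0.387). KRT5, its partner keratin, fell by 1.31 on the log2 scale (edgeR adjusted p = 0.00799). IVL, a cornified envelope precursor made by differentiating keratinocytes, had group means of 5972 to 7306 CPM in the differentiation media, against 3340 and 1194 CPM, and was not called (adjusted p = 0.0783). KRT10, a keratin of suprabasal cells, fell by 1.76 on the log2 scale (adjusted p = 0.00374). KRT5 was the only one called of 6 basal markers tested and KRT10 the only one of 9 suprabasal markers. The 4 hair keratin and follicle genes listed in every library (KRT32, KRT81, KRT86 and LHX2) had no count in the differentiation libraries, against a summed 30.8 to 43.8 CPM in later expansion medium. The differentiation libraries came with another list of entries (18111, against 20446 in the other libraries), so the set of files and the medium cannot be told apart. In bulk RNA, more cells that express a gene and more RNA per cell also cannot be told apart.

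In the 6 differentiation libraries, ISG15, OAS1 and IRF1 stood above all 4 later expansion libraries. These were 3 of the 7 genes, where 5.14% of 9732 genes stood above in every library. The choice of the genes rests on these media, so nothing is read from that share. IRF1 had only 2 counts in the differentiation library with the lowest total. ISG15 had the widest gap, with a log2 fold change of 5.36 ± 0.62 (SE) from edgeR's quasi-likelihood fit, and IRF1 and OAS1 had 2.44 ± 0.48 and 2.06 ± 0.39. The median over all 9732 genes was -0.13, and edgeR called 926 of them higher and 1417 lower, 24.1% in all, or 1190 higher and 1202 lower with DESeq2's size factors. IFIH1, IFI44 and MX1 overlapped between the media, and MX2 had no count in any differentiation library.

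**Figure D1:**
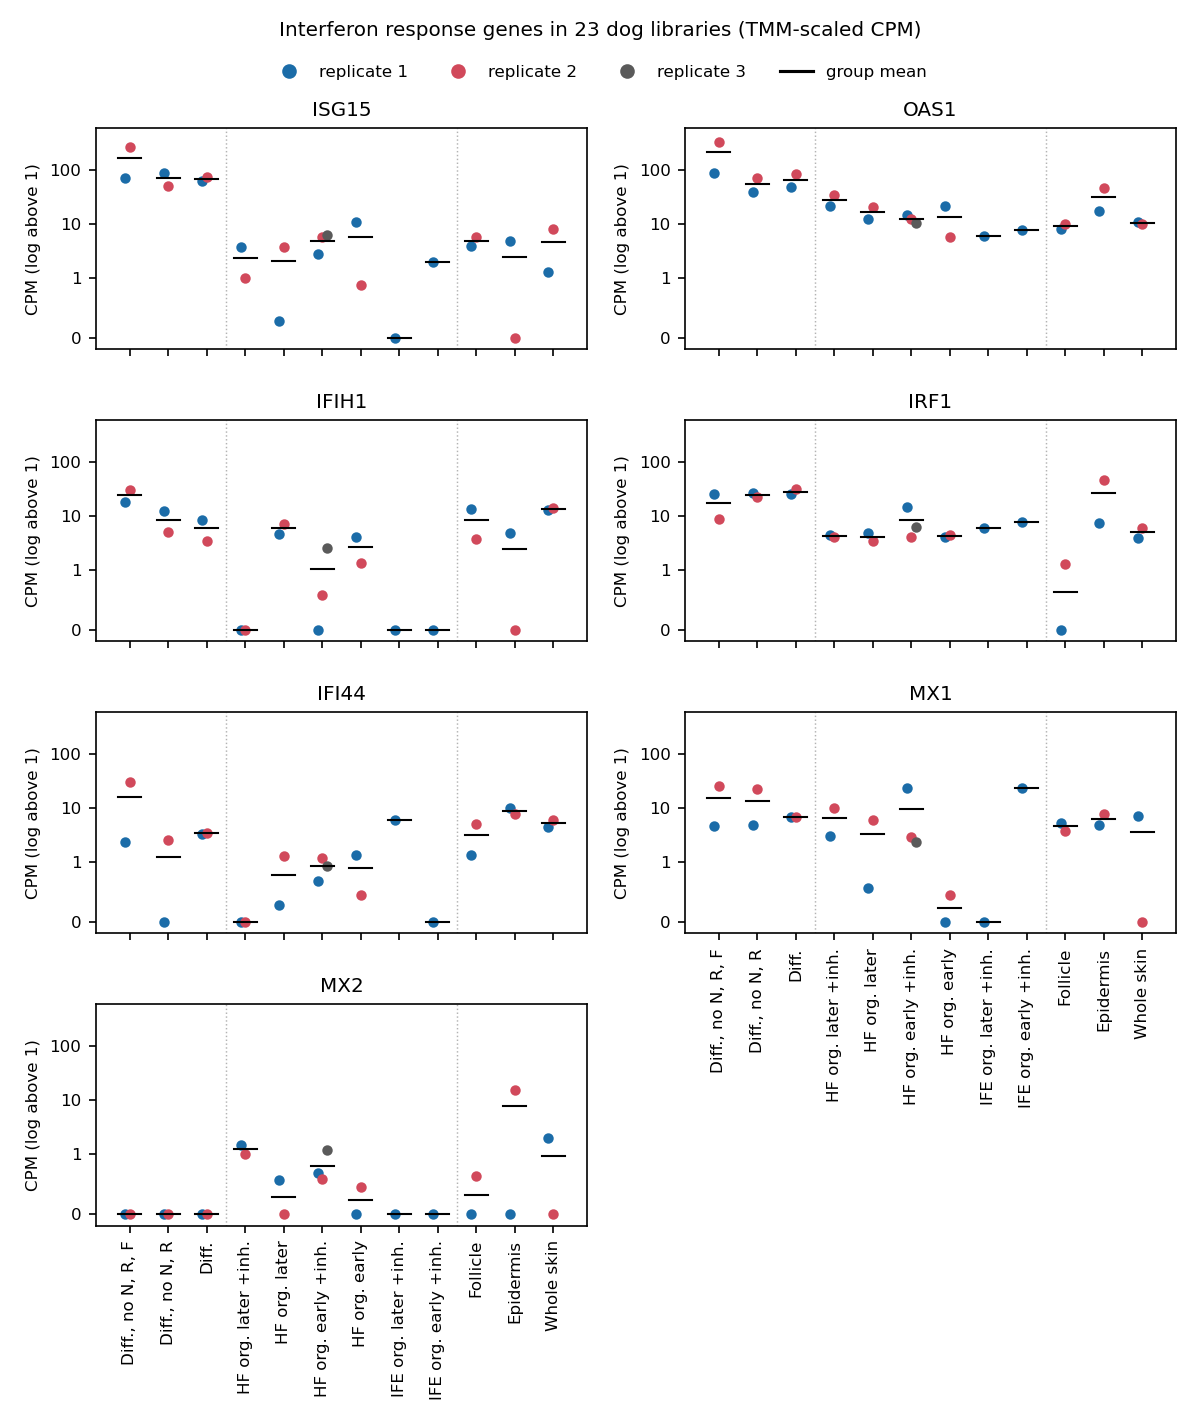
CPM of each of the 7 genes (vertical axis, linear below 1 and logarithmic above) in the 23 libraries of 12 groups (horizontal axis), where N is Noggin, R is R-Spondin-1, F is Forskolin, HF is hair follicle, IFE is interfollicular epidermis and inh. is the Tgf-beta inhibitor. Points are libraries, coloured by replicate number, and bars are group means. ISG15 sits at 49.9 CPM or more in all differentiation libraries and at 10.8 CPM or less elsewhere, while MX2 sits at 0 in the differentiation libraries.

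IFIH1 encodes MDA5, a cytoplasmic sensor of long double-stranded RNA, and is itself raised by interferon in other mammals. It had 18.5 and 30.3 CPM in the medium without Noggin, R-Spondin-1 and Forskolin, 12.2 and 4.99 CPM without Noggin and R-Spondin-1, and 8.36 and 3.46 CPM in the complete differentiation medium. Later expansion libraries had no IFIH1 count with the inhibitor, and 4.55 and 7.17 CPM without it. The contrast therefore turned on which expansion cultures were used. Against those with the inhibitor, IFIH1 was at least 9.49-fold higher in the differentiation media, taking 3 counts over the group as the limit that 0 allows. Against those without it, the log2 fold change was 0.91 and the libraries overlapped. Whole skin had 12.9 and 14.1 CPM, so the medium without all 3 factors was the only differentiation medium in which both libraries exceeded whole skin.

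IRF1, a transcription factor that drives interferon-stimulated and antigen presentation genes, had 25.4 and 8.66 CPM without Noggin, R-Spondin-1 and Forskolin, 26.8 and 22.4 CPM without Noggin and R-Spondin-1, and 25.1 and 31.1 CPM in the complete medium. The 4 later expansion libraries lay between 3.37 and 4.84 CPM. IRF1 was thus above later expansion medium in every differentiation library by CPM. Its lowest value was in the second library without all 3 factors, which was also the differentiation library with the fewest counts (235900). That value rests on 2 counts. Its exact binomial interval, 1.03 to 30.6 CPM of the unscaled total, covers counting error only and spans the later expansion range. Leaving out the second library without all 3 factors gave a log2 fold change of 2.58.

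ISG15 encodes a ubiquitin-like protein that is joined to other proteins after interferon exposure. It had 71.5 and 264 CPM without Noggin, R-Spondin-1 and Forskolin, 89.98 and 49.9 CPM without Noggin and R-Spondin-1, and 61.9 and 76.1 CPM in the complete medium. The later expansion libraries had 3.71 and 1.00 CPM with the inhibitor and 0.285 and 3.79 CPM without it. No library of tissue or expansion medium passed 10.8 CPM. Leaving out the library at 264 CPM gave a log2 fold change of 4.97, and leaving out the second later library without inhibitor gave 6.47.

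OAS1, an enzyme that makes the 2′-5′-linked oligoadenylates that activate RNase L, had 87.7 and 338 CPM without Noggin, R-Spondin-1 and Forskolin, 38.9 and 72.3 CPM without Noggin and R-Spondin-1, and 48.5 and 83.0 CPM in the complete medium. The later expansion libraries had 21.5 and 35.1 CPM with the inhibitor and 12.2 and 21.1 CPM without it. The groups did not overlap, although the lowest differentiation library (38.9 CPM) lay close to the highest expansion library (35.1 CPM). Leaving out the library at 338 CPM lowered the log2 fold change to 1.65. Of all 12 groups, epidermis came next after the differentiation media, at 17.1 and 46.7 CPM.

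MX1 and MX2 encode dynamin-like antiviral GTPases, and in the reference annotation they are neighbours on chromosome 31 with no protein-coding gene between them. MX1 had 4.62 and 26.0 CPM without Noggin, R-Spondin-1 and Forskolin, 4.86 and 22.4 CPM without Noggin and R-Spondin-1, and 6.69 and 6.92 CPM in the complete medium. The later expansion libraries had 2.97 and 10.03 CPM with the inhibitor and 0.569 and 5.90 CPM without it. These ranges overlapped, and the log2 fold change of 1.28 ± 0.82 became 2.35 without the second later library without inhibitor. MX2 had 0 counts in the 6 differentiation libraries together, which allows up to 1.19 CPM, against 5 counts, or 0.578 CPM pooled, in later expansion medium, so a fall of MX2 was not detectable at this depth. Reads shared between the related MX1 and MX2 could have been split by the counting, whose method is not known. Before rounding, MX1 held a fraction in 1 of the 23 libraries and MX2 in 0. Whether reads were split between them was not tested.

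IFI44, an interferon-stimulated gene of the cytoplasm whose molecular role is less settled, was near its counting limit. It had 2.31 and 30.3 CPM without Noggin, R-Spondin-1 and Forskolin, 0 and 2.49 CPM without Noggin and R-Spondin-1, and 3.35 and 3.46 CPM in the complete medium. Later expansion libraries had no count with the inhibitor, and 0.285 and 1.26 CPM without it. The 12 differentiation counts, 7 of them in 1 library, put IFI44 at least 4.07-fold above the expansion cultures with the inhibitor, again against 3 counts over the group. Without that library the limit was 1.87-fold. Against the cultures without the inhibitor the log2 fold change was 2.31.

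The differentiation media were then compared with each other. Without Noggin and R-Spondin-1 against the complete medium, the log2 fold changes were 0.04 ± 0.72 for ISG15, -0.20 ± 0.62 for OAS1, -0.17 ± 0.69 for IRF1, 0.39 ± 1.07 for IFIH1 and 0.99 ± 1.39 for MX1. Each was smaller than its SE. Leaving out 1 library gave -0.45 to 0.39 for ISG15, -0.71 to 0.20 for OAS1, -0.34 to -0.02 for IRF1, -0.38 to 1.29 for IFIH1 and -0.47 to 1.71 for MX1, where MX1 was negative without the second library lacking Noggin and R-Spondin-1. Only IFI44 did not overlap, with 1 count against 3, and 11.3% of genes lay lower in every library. Across all genes edgeR called 0 of 9732, with 260 at an unadjusted p under 0.05, and DESeq2 also called 0. The 28 other targets had 1 at an unadjusted p under 0.05, SAMD9L, with no count without Noggin and R-Spondin-1, against 5 in the complete medium.

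Removing Forskolin as well went with higher OAS1 and IFIH1 in both libraries, which made 2 of the 7 genes, where 9.42% of 9732 genes lay higher in every library. OAS1 had 87.7 and 338 CPM without all 3 factors, against 38.9 and 72.3 CPM without Noggin and R-Spondin-1, a log2 fold change of 1.89 ± 0.60. IFIH1 had 18.5 and 30.3 CPM, against 12.2 and 4.99 CPM, a log2 fold change of 1.44 ± 0.93. Without the second library lacking all 3 factors the log2 fold change of OAS1 was 0.67, that of IFIH1 was 1.11 and that of ISG15 was 0.05 in place of 1.21 ± 0.71. Leaving out any 1 library gave 0.95 to 2.21 for IFIH1. MX1 had -0.05, which became -1.52 without the second library lacking all 3 factors and 1.42 without the second lacking Noggin and R-Spondin-1. IFI44 rested on 8 counts against 1. IRF1 differed by -0.40 ± 0.75, by -1.51 without the first library lacking all 3 factors and by 0.06 without the second. Across all genes edgeR called 0 of 9732 genes in this comparison, with 328 at an unadjusted p under 0.05, and DESeq2 also called 0. The 28 other targets had 4 at an unadjusted p under 0.05, and the smallest p was that of RNF213, with 12 counts against 1 (log2 fold change 3.72 ± 1.34, adjusted p = 1). RNF213 averaged 16.9 CPM without all 3 factors, 1.22 CPM without Noggin and R-Spondin-1 and 10.3 CPM in the complete medium. In the same order, SAMD9L averaged 6.64, 0 and 5.97 CPM, ADAR 45.6, 19.7 and 21.1 CPM, and EPSTI1 7.94, 1.22 and 0.836 CPM.

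**Figure D2:**
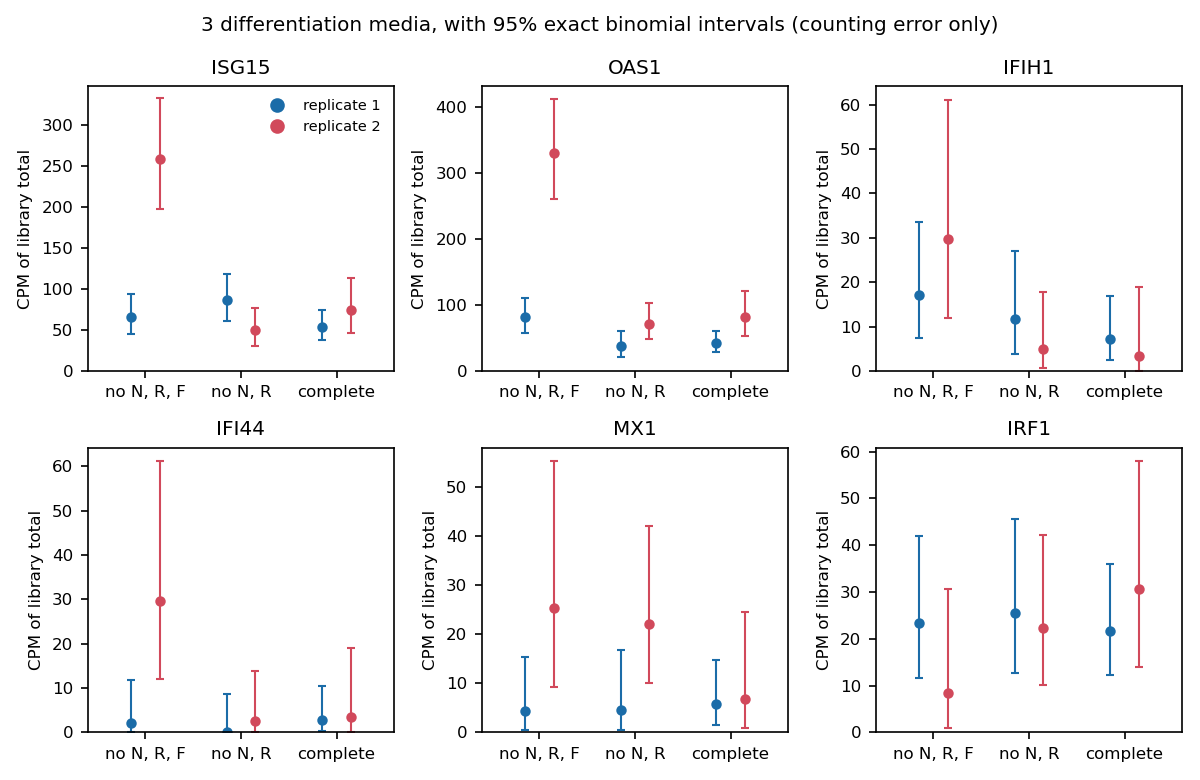
CPM of the unscaled library total (vertical axes, linear from 0) for the 6 genes with counts in the 3 differentiation media (horizontal axes: without Noggin, R-Spondin-1 and Forskolin, without Noggin and R-Spondin-1, and complete). Points are libraries, coloured by replicate number, with exact 95% binomial intervals that cover counting error only. In ISG15 and OAS1 the interval of the second library without all 3 factors lies above those of the other 5 libraries, and in IFIH1, MX1 and IRF1 the intervals of that library overlap the others.

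In the second library without all 3 factors, ISG15 had 61 of 235900 counts, or 259 CPM of the unscaled total with an exact 95% binomial interval of 198 to 332 CPM. The first library of the same medium had 66.1 CPM, with an interval of 44.9 to 93.9 CPM. For OAS1 the same libraries had 331 CPM (261 to 413) and 81.1 CPM (57.4 to 111). The replicates of this medium thus differed by more than counting error in both genes. All 6 genes with counts were above the highest later expansion library in the second library, 5 were in the first, and 4 or 5 were in each library of the other differentiation media. Tissue libraries had 2 to 4 of the 7 genes above that library, and early follicle-derived organoids had 0 to 2. The share of all genes was not taken for single libraries. The genes were also chosen with these media in view, so nothing is read from these numbers.

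Other interferon genes were counted from lists that do not hold the 7 genes. Among the 63 other interferon-stimulated genes, 28 could be tested for the differentiation media against later expansion medium. Of these, 3 rose and none fell, against 9.52% and 14.6% of all genes called higher and lower. The count of higher calls is near that background share. The median log2 fold change was 0.58, beside a median of -0.13 over all genes. Of the 28, 22 were positive, and the share of positive changes over all genes was not taken. LGALS9, a sugar-binding galectin, rose with a log2 fold change of 2.15 ± 0.49 (edgeR adjusted p = 0.00367). It had 11.5 and 86.6 CPM without all 3 factors, 14.6 and 17.4 CPM without Noggin and R-Spondin-1 and 11.7 and 13.8 CPM in the complete medium, against 3.71 to 5.48 CPM in later expansion medium. All its differentiation libraries were above all later expansion libraries of follicle-derived organoids, where 5.14% of 9732 genes stood above in every library. The interfollicular organoids, not part of this contrast, averaged 9.10 CPM. Without the library at 86.6 CPM the log2 fold change of LGALS9 was 1.51. NMI, which binds STAT proteins, rose by 1.03 ± 0.26 (adjusted p = 0.00787), with 134 to 273 CPM against 71.7 to 118 CPM. UBE2L6, the enzyme that passes ISG15 to its targets, rose by 0.83 ± 0.27 (adjusted p = 0.028), with 26.8 to 69.3 CPM against 20.1 to 28.2 CPM. The UBE2L6 call was lost in 9 of 20 alternatives, among them leaving out either later library with the inhibitor, the second later library without it or the second library of any differentiation medium (adjusted p 0.0680 to 0.102). The NMI call was lost against the cultures with the inhibitor alone (adjusted p = 0.101).

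Among targets that were not called, DDX58 (RIG-I), the sensor related to IFIH1, had a log2 fold change of 1.08 ± 0.71 (adjusted p = 0.282), and IRF9, the DNA-binding subunit of the ISGF3 complex, had -0.16 ± 0.41 (adjusted p = 0.823). ADAR, which edits double-stranded RNA, had -0.01 ± 0.29 (adjusted p = 1.00). Summed over the 51 other targets listed in every library, the differentiation libraries had 813 to 1079 CPM, against 523 to 603 CPM in later expansion medium.

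**Figure D3:**
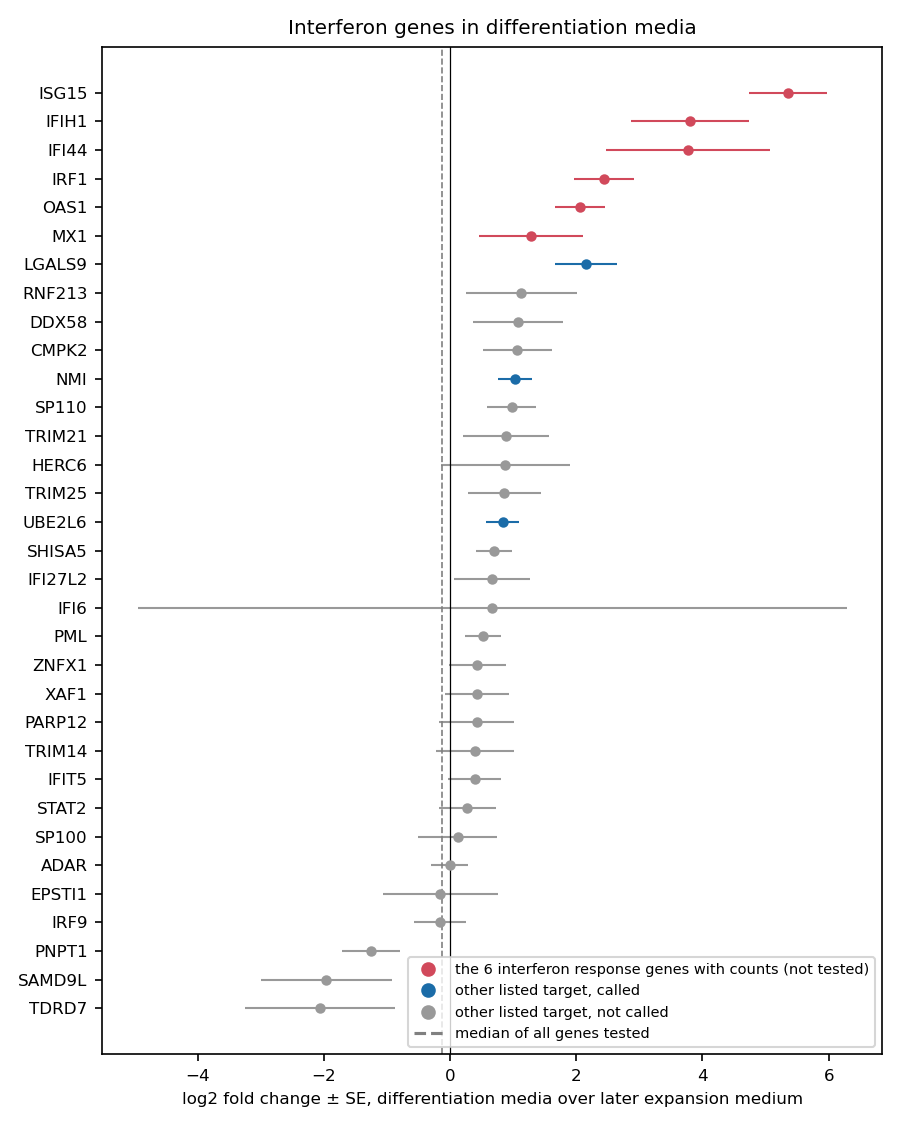
Log2 fold change with its SE (horizontal axis) for the 6 followed genes with counts and 27 of the 28 other interferon targets tested (vertical axis), in the 3 differentiation media over later expansion medium. Red points were not tested, blue points were called by edgeR and grey points were not. The fitted values of IFIH1 and IFI44 include expansion cultures with no count, so they depend on the prior count. The 3 called targets sit between 0.83 and 2.15, right of the dashed median of all genes at -0.13.

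Among the 25 targets linked to interferon gamma, 10 could be tested, and 2 rose and 1 fell. Over all 9732 genes, 9.52% were called higher and 14.6% lower. ICAM1, an adhesion molecule for leukocytes, rose by 1.95 ± 0.33 (edgeR adjusted p = 0.000289) and was called in all 20 alternatives. It had 120 and 260 CPM without all 3 factors, 185 and 187 CPM without Noggin and R-Spondin-1 and 102 and 159 CPM in the complete medium, against 25.0 to 83.9 CPM in later expansion medium. WARS, a tryptophan tRNA ligase, rose by 0.73 ± 0.24 (adjusted p = 0.0323), a call lost in 12 of 20 alternatives (adjusted p 0.0511 to 0.166), among them leaving out any later expansion library, the first library of the complete medium, the second without Noggin and R-Spondin-1 or the first without all 3 factors. PSMB10, a catalytic subunit of the immunoproteasome, fell by 1.34 on the log2 scale (adjusted p = 0.00868), a call lost against the cultures with the inhibitor alone (adjusted p = 0.0727). The calls of this list thus went in both directions, and their number is near the share over all genes.

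Among receptors, kinases and phosphatases of the pathway, 16 of 20 could be tested, and 1 rose and 1 fell, where 24.1% of all genes were called. IFNGR2, a chain of the interferon gamma receptor, rose by 1.29 ± 0.39 (adjusted p = 0.0194), with 30.0 to 201 CPM in the differentiation media, against 22.3 to 64.9 CPM. The libraries overlapped, and its call was lost in 6 of 20 alternatives (adjusted p 0.0596 to 0.151), among them without the second library of the medium lacking all 3 factors (adjusted p = 0.116), the second without Noggin and R-Spondin-1 (0.0596), and the first later library with (0.109) or without (0.0747) the inhibitor. IFNAR1, a chain of the type I interferon receptor, had 1.21 ± 0.45 (adjusted p = 0.0516) and was not called. PTPN2, a phosphatase that acts on Janus kinases, fell by 2.11 on the log2 scale (adjusted p = 0.0042), with 0 to 6.69 CPM against 9.70 to 18.1 CPM.

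Among genes of nucleic acid sensing, 10 of 20 could be tested and 2 fell, where 14.6% of all genes were called lower. MYD88, an adaptor of Toll-like receptors, fell by 1.25 on the log2 scale (adjusted p = 0.00786), with 6.92 to 13.8 CPM in the differentiation media, against 19.1 to 28.7 CPM. RNASEH2B, a subunit of an enzyme that removes RNA from DNA, fell by 1.36 (adjusted p = 0.0124), and this call was lost without the first later library with the inhibitor (adjusted p = 0.0738) and against the cultures with the inhibitor alone (adjusted p = 0.0557). Of 16 interferon ligand genes, only IFNE and IFNL1 were listed. Together they had 6 counts in the differentiation libraries (0 to 8.66 CPM), against 18 counts in later expansion libraries (1.14 to 3.79 CPM).

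Immune cells carry many of these transcripts in skin, so their markers were summed over the 9 listed in every library (CD74, DLA-DRA, CD163, CSF1R, ITGAM, NKG7, MS4A1, LST1 and TYROBP). Differentiation libraries had 0 to 2.49 CPM, with 1 count in all, against 3.01 to 7.43 CPM in later expansion medium and 125.995 to 790 CPM in tissue. CD74 and DLA-DRA, which belong to antigen presentation by MHC class II, had no count in the differentiation libraries. Summed fibroblast markers were also lower, with 3.46 to 43.3 CPM against 51.3 to 64.0 CPM, whereas 3 endothelial markers had 8.66 to 34.0 CPM against 3.01 to 7.40 CPM. The endothelial sum was nearly all VWF, which was called higher (means of 16.0 CPM in differentiation and 3.25 CPM in later expansion media, edgeR adjusted p = 0.0076), while EGFL7 averaged 0.663 CPM against 0.715 CPM and CDH5 had 1 count in the differentiation libraries. The part of the endothelial markers in the interferon values was not tested.

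**Figure D4:**
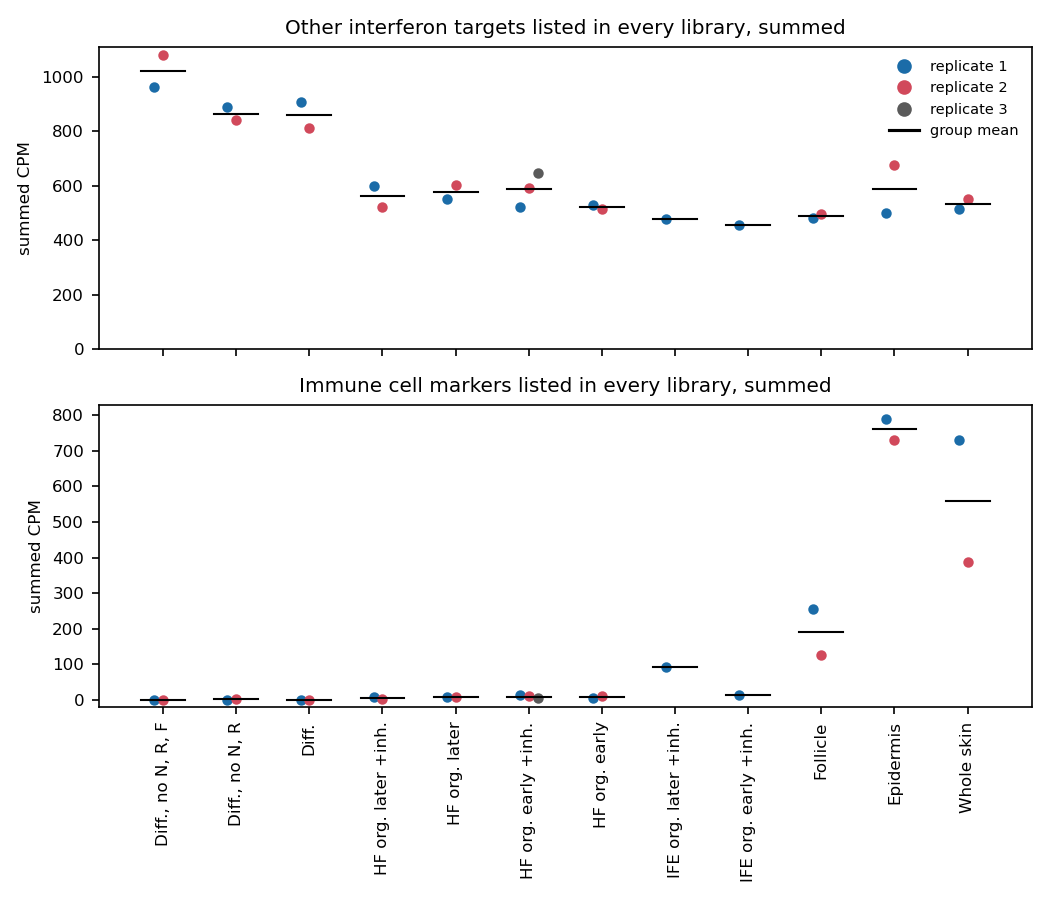
Summed CPM (vertical axes, linear) of 51 other interferon targets and of 9 immune cell markers listed in every library, in the 23 libraries of 12 groups (horizontal axis). Points are libraries, coloured by replicate number, and bars are group means. The target sum lies at 813 to 1079 CPM in the differentiation libraries, where the immune marker sum is 0 to 2.49 CPM, while the immune sum is 125.995 to 790 CPM in tissue.

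The 7 genes were also tested between tissues and in expansion medium, contrasts that the rule choosing them did not single out, although earlier results of these data were known. Follicle was set against interfollicular epidermis, both taken from skin. IRF1 was lower in follicle and was the only one of the 7 genes called, where 2.78% of 9888 genes were. It had 0 and 1.27 CPM in follicle, against 7.33 and 46.7 CPM in epidermis, a log2 fold change of -4.39 ± 1.12 (edgeR adjusted p = 0.0348). This rests on 2 counts against 9, the second epidermis library holding 84391 gene counts, and the call was lost without the first follicle library (adjusted p = 0.145), the second (0.129) or the second epidermis library (0.294). Of the signalling genes IFNLR1, a chain of the interferon lambda receptor, was lower in follicle, with 3.97 and 1.90 CPM against 26.9 and 31.1 CPM (log2 fold change -3.35 ± 0.82, adjusted p = 0.0287), and this call was lost without any single library of these groups (adjusted p 0.0869 to 0.287). None of the 28 other targets was called by edgeR or by DESeq2, with 4 at an unadjusted p under 0.05, beside 1589 of all 9888 genes. The smallest p were those of EPSTI1 (log2 fold change -2.70 ± 0.79, adjusted p = 0.0717) and CMPK2 (-2.58 ± 0.87, adjusted p = 0.128). The immune marker sum was 256 and 125.995 CPM in follicle, against 790 and 732 CPM in epidermis. Its part in IRF1 and IFNLR1 was not tested.

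Follicle-derived organoids in expansion medium were set against follicle. IFIH1 and IFI44 fell, 2 of the 7 genes, where 28% of 9888 genes were called in either direction. Their number is near that share, so nothing is read from it. IFIH1 lay at 0 to 7.17 CPM in the 9 organoid libraries, with a mean of 2.39 CPM over their 4 groups, against 13.2 and 3.80 CPM in follicle (log2 fold change -2.69 ± 0.78, edgeR adjusted p = 0.0134), and the call was lost without the first follicle library (adjusted p = 0.259). IFI44 lay at 0 to 1.35 CPM in the 9 organoid libraries, against 1.32 and 5.07 CPM in follicle (log2 fold change -2.83 ± 0.90, adjusted p = 0.0238), and the call was lost without the second follicle library (adjusted p = 0.580). IRF1 had 3.37 to 14.9 CPM in the 9 organoid libraries, all above the 0 and 1.27 CPM in follicle, where 14.8% of 9888 genes lay above in every library. It was not called (log2 fold change 2.43 ± 0.93, adjusted p = 0.0555). Without the filter on low counts (adjusted p = 0.022) or without the second early library with the inhibitor (adjusted p = 0.0438) IRF1 was called higher.

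Of the 28 other targets, edgeR called 2, both lower, where it called 28% of 9888 genes in either direction. IFI6, which protects mitochondria and blocks some viruses, fell to 0 to 2.76 CPM in organoids, against 3.97 and 5.70 CPM in follicle (log2 fold change -3.05 ± 0.84, edgeR adjusted p = 0.00904), and LGALS9 fell by 1.46 (adjusted p = 0.0318). Neither was called without the second follicle library (adjusted p 0.203 for IFI6 and 0.553 for LGALS9). LGALS9 was also lost without the first later library with the inhibitor (adjusted p = 0.0545) or the second early library without it (0.0697). IRF8, a transcription factor of myeloid and B cells, fell to 2 counts in 9 organoid libraries, against 12 in follicle (log2 fold change -4.73 ± 0.88, adjusted p = 0.000707), and was not called by DESeq2 (adjusted p = 0.548). PSMB10, PTPN1, PTPN2, IKBKE and RNASEH2C rose, by 1.72, 1.10, 1.64, 1.71 and 2.82 on the log2 scale. The calls of PTPN2 and IKBKE were lost without the first follicle library, that of PTPN1 without the second and those of PSMB10 and RNASEH2C without either (adjusted p 0.0532 to 0.407). WARS rose by 0.86 (adjusted p = 0.0462), a call lost in 15 of the alternatives. The immune marker sum was 3.01 to 12.2 CPM in the organoids, against 256 and 125.995 CPM in follicle, and all 9 fibroblast, 3 endothelial and 7 hair keratin markers tested were called lower in the organoids, with median log2 fold changes of -5.82, -3.26 and -6.81. The part of these markers in the values above was not tested.

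Interfollicular organoids, with 1 library each at early and later passage, were assumed to vary like the other groups. None of the 7 genes was called against epidermis by edgeR or DESeq2, where edgeR called 11.2% of 9888 genes. None of the 7 had an unadjusted p under 0.05, where 2665 of the 9888 genes had. OAS1 had 6.07 CPM in the later and 7.74 CPM in the early library, against 17.1 and 46.7 CPM in epidermis, and IRF1 had 6.07 and 7.74 CPM, against 7.33 and 46.7 CPM. MX1 reached 23.2 CPM in the early library and had no count in the later one, whose 7 genes held 3 counts in all. IFNLR1 had no count in these organoids, against 15 counts in epidermis (adjusted p = 0.00765), and was called lower, as was PSMB9, an immunoproteasome subunit, with no count against 10 (adjusted p = 0.0454). PML, of nuclear bodies, was higher, with 36.4 and 15.5 CPM against 2.44 and 0 CPM (adjusted p = 0.0246), and TRAF6, a signalling adaptor, fell by 2.04 on the log2 scale (adjusted p = 0.0298). Leaving out either epidermis library ended the calls of PML (adjusted p 0.173 and 0.0634), PSMB9 (0.0626 and 0.126) and TRAF6 (0.184 and 0.0518). The IFNLR1 call was lost with only the compared groups in the fit (adjusted p = 0.125). The immune marker sum was 90.98 CPM in the later and 13.6 CPM in the early organoid library, against 790 and 732 CPM in epidermis. Of the markers tested, 3 of 5 immune, 3 of 9 fibroblast and 5 of 9 suprabasal ones were called lower in the organoids, and their part in these values was not tested.

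The Tgf-beta inhibitor was compared in follicle-derived organoids at both passages. None of the 7 genes was called by edgeR or DESeq2, where edgeR called 2.68% of 9888 genes. At an unadjusted p under 0.05 there were 2 of the 7, and 1402 of the 9888 genes. The nearest was IFIH1, with 0, 0, 0, 0.582 and 2.53 CPM in the 5 libraries with the inhibitor, against 4.55, 7.17, 4.04 and 1.32 CPM in the 4 without it (log2 fold change -3.19 ± 1.01, adjusted p = 0.105). IFIH1 was called lower without the filter on low counts (adjusted p = 0.0222) and without the third early library with the inhibitor (adjusted p = 0.0405). At later passage it had 0 counts with the inhibitor, against 33 without it, at least 4.65-fold lower. The effect of the inhibitor on IFIH1 did not differ between passages after adjustment (log2 difference -5.17, unadjusted p = 0.0206, adjusted p = 1.00). MX1 was the other, with group means of 6.50 and 9.41 CPM with the inhibitor at later and early passage, against 3.24 and 0.220 CPM without it (log2 fold change 2.68 ± 0.99, adjusted p = 0.181), and was called higher without the filter on low counts (adjusted p = 0.00135).

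EPSTI1, an interferon-stimulated gene of epithelium and stroma, fell with the inhibitor to 0.691 to 1.35 CPM, against 3.08 to 9.70 CPM without it (log2 fold change -2.34 ± 0.59, edgeR adjusted p = 0.0367). The call was lost without any single library of these organoids other than the first and second early ones with the inhibitor (adjusted p 0.0551 to 0.193). RNASEH2A fell by 2.32 (adjusted p = 0.0256), a call lost without either later library with the inhibitor or the first early or later library without it (adjusted p 0.0821 to 0.184). Both genes did not overlap between the libraries with and without the inhibitor. They were named because they were called, and the share of all genes that did not overlap was not taken. MX2, from few counts, had 0.582 to 1.49 CPM with the inhibitor against 0 to 0.569 CPM without it, and nothing is read from that gap.

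Later passage was compared with early passage in the same organoids. None of the 7 genes was called by edgeR or DESeq2, where edgeR called 0.354% of 9888 genes. None of the 7 had an unadjusted p under 0.05, where 711 of the 9888 genes had. None of the 28 other targets was called by either tool, with 2 at an unadjusted p under 0.05, SAMD9L (log2 fold change 2.35 ± 0.64, adjusted p = 0.183) and IRF9 (-0.94 ± 0.31, adjusted p = 0.366). OAS1 came nearest, with 12.2 to 35.1 CPM in later libraries, against 5.72 to 21.5 CPM in early ones (log2 fold change 0.84 ± 0.42, adjusted p = 0.724).

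Across the 12 group means the 7 genes did not move as one. ISG15 and OAS1 had the most alike profiles of log2 CPM (Pearson r = 0.87 over 12 groups, which differ in depth and medium), and the other pairs ranged down to -0.39 for ISG15 and MX2. ISG15 and OAS1 were highest in the 3 differentiation media, and below them the ISG15 groups had means of 0 to 5.82 CPM that overlapped in their libraries. IRF1 averaged 28.1 ± 4.27 CPM in the complete differentiation medium and 27.0 ± 27.8 CPM in epidermis (SD, n = 2 each), a gap within their spread, MX1 was highest in the early interfollicular organoid library, and MX2 in epidermis, from 2 counts. IFIH1 was highest without all 3 factors, followed by whole skin.

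Among 7601 genes that reached 20 CPM in a group, the profile most like the mean of the 7 genes was that of GGT6, a gamma-glutamyltransferase family member (r = 0.92). DMTN, DLA-64, PRCP, C9H9orf142, PPP6C, ZPLD1 and UFC1 followed, down to r = 0.89. These are the highest of 7601 values over 12 group means, so high r follows from the search and nothing is read from it. DLA-64 was picked by this likeness, so its values are not a separate result. DLA-64, a dog MHC class I gene, had group means of 987 CPM without all 3 factors, 1032 CPM without Noggin and R-Spondin-1 and 790 CPM in the complete medium, against 216 and 269 CPM in later expansion medium with and without the inhibitor. The genes most like single members were LOC102153836 and SCRIB for ISG15, LEPROTL1 and CLTB for OAS1, TRAPPC2L and MMP7 for IFIH1, and ZFYVE9 and SLC22A23 for IRF1. For the sparse genes they were UBTD1 and LOC106559340 for MX1, MFN1 and KCNA3 for MX2, and ARHGEF37 and USP3 for IFI44.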

How the data were processed

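Per the labels, total RNA was sequenced by CEL-seq2 in 23 dog libraries of 12 groups. The deposited values are estimated counts per gene, 4.91 to 10.6% of the entries in a library holding a fraction, and the authors gave each library its own table. The submitters' processing notes name BWA 0.6.2-r126 and the build CanFam3.1. The annotation, the counting tool, the strand setting and any collapsing of molecular barcodes are not given in these sources. Entries that named no gene (0.461 to 2.16% of counts) were left out. Provisional locus names were given symbols for 401 of 6665 entries from a RefSeq table of another assembly, used for names and neighbours only.

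Counts were rounded to whole numbers. An entry that a library did not list was set to 0, and comparisons with differentiation media used the 9732 tested genes that those libraries list. edgeR 4.0.16 (R 4.3.3) removed low genes by its default filter on the groups (14.3 CPM in 1 library), leaving 9888. The trimmed mean of M values (TMM) scaled the libraries, and a quasi-likelihood model with 1 mean per group over all 23 libraries (11 residual degrees of freedom) tested contrasts of log2 group means. Benjamini-Hochberg adjustment ran over all genes tested, and calls needed an adjusted p under 0.05. CPM values are TMM-scaled unless stated. The same model was tested on simulated data with known changes. DESeq2 1.42.0, other scalings, filters and reference groups, a replicate block and leaving out single libraries were alternatives. Floors take 3 counts over a group, and floors and intervals cover counting error only. A gene is named from a list if called, by smallest p, up to 4 in each direction, or, where none was called, as one of the 2 with the smallest p. DDX58, IRF9, ADAR and IFNAR1 were named in addition after their values were seen, as was EPSTI1 for the removal of Forskolin. 1 gene of the lists is counted with the others but not reported here by its values. The genes followed, the lists and the alternatives were chosen with earlier results of these data known.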

Additional observations from a re-analysis of the deposited data

How the results depend on the processing

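The deposited tables hold few counts of these genes (19 for MX2 and 50 for IFI44 in all 23 libraries), so depth limits MX2, IFI44, IFIH1 and MX1. The cause of these changes was not tested.

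For follicle against epidermis, edgeR called 275 genes, 481 without the filter on low counts and 465 with only the compared groups in the fit, and 113 to 170 without 1 library (149 and 113 without the first and second follicle library, 147 and 170 without the first and second epidermis library). Other interferon targets were 0, and 1 with library totals, without the filter, with only the compared groups, or without the second epidermis library (0 to 1 without 1 library). For follicle-derived organoids against follicle, the 2769 calls became 1643 and 1392 without the first and second follicle library (1392 to 2955 without 1 library), and the 2 targets became 1 with the replicate block and with the filter in 2 libraries, which was added after seeing the data, and 0 to 1 without 1 library (0 without the second follicle library, 1 without the first later library with the inhibitor or the second early one without it). For interfollicular organoids against epidermis, the 1110 calls became 737 with only the compared groups and 415 to 914 without 1 library (415 without the first epidermis library), and the 1 target became 2 without the filter, and 0 with only the compared groups or without that library (0 to 1 without 1 library). For the inhibitor, the 265 calls became 641 without the filter and 109 to 303 without 1 library (109 and 148 for the later ones with the inhibitor, 119 and 165 for the early and 120 and 166 for the later ones without it). The 1 target became 2 without the filter, and 0 with the block or without any of 7 libraries, those named for EPSTI1.

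For later against early passage, the 35 calls became 171 without the filter, 18 with the block and 21 with only the compared groups, and 9 to 53 without 1 library (53 and 17 for the early replicates 1 and 3 with the inhibitor, 9 for either later one, 20 and 18 for the early and 23 and 11 for the later ones without it). Targets were 0, and 1 without the filter. For the differentiation media, the 2343 calls became 1508 with only the compared groups, 1408 against cultures without the inhibitor, and 1544 to 2340 without 1 library (1545 without the first later library without the inhibitor, 1544 without the second with it). The 3 targets became 5 with DESeq2's size factors, its test or no filter, and 1 against cultures with the inhibitor. Without the filter, 12 genes were called for Noggin and R-Spondin-1 and 19 for Forskolin, in place of 0.

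Between the differentiation media, signs turned for ISG15, OAS1, IFIH1 and MX1 (Noggin and R-Spondin-1) and MX1 and IRF1 (Forskolin). Elsewhere, only genes not called turned. MX2 in follicle-derived organoids against follicle was -0.04, -0.04 and -0.047 without the first follicle, the second early or the first later library without inhibitor (range without 1 library -0.047 to 2.71). ISG15 with the inhibitor was -0.23, -0.31 and -0.12 without the first later library with it, the second early or the first later library without it (range -0.31 to 1.51), and OAS1 was -0.039 without the second early library (range -0.039 to 0.92). Without the first epidermis library, ISG15 was 2.16 (range -3.44 to 2.16) and IFIH1 0 (range -5.60 to 0) in interfollicular organoids. MX2 at later passage was -0.71 (range -0.71 to 1.24) without the first later library without inhibitor.

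Scaling by library totals moved the median log2 fold change of all genes from 0.21 to -0.10 for follicle, from 0.00 to -0.19 for follicle-derived and from -0.15 to -0.70 for interfollicular organoids, and from 0.00 to -0.13 for the inhibitor. Calls higher and lower were then 146 and 143 (main 202 and 73), 594 and 2219 (893 and 1876), 389 and 1111 (663 and 447), and 133 and 116 (190 and 75).

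Replicate numbers recur across groups, but the labels do not say that they mark a shared dog or culture. Deviations from group means of same-numbered libraries correlated at 0.34 to 0.44 among the differentiation media and at -0.25 to 0.14 otherwise. As the groups share at most 2 numbers beside 1 group of 3, the numbers were not taken as pairing. With the replicate block, calls were 229, 2425, 881, 206, 18 and 2034 in the order given above, and 0 between the differentiation media, also in a fit to those 6 libraries alone. IRF1 (adjusted p = 0.0529) and IFNLR1 (0.0679) were then not called for follicle, and IFIH1 was called for the inhibitor (0.0443).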
